A study of Mus musculus with 12 samples.

Results

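The comparison is between mammary tumors of an epithelial kind that had much and little Mki67 RNA. Of 12 sequenced tumors from 9 mice, 9 tumors from 6 mice were kept because their Epcam was at 200 TPM or more and their Met at 1000 TPM or more. TPM is a relative transcript level that is already divided by transcript length. The 9 tumors were then ranked by Mki67, the 4 highest were called Mki67-high, the 4 lowest Mki67-low, and the tumor between them was set aside. So 8 of the 12 tumors were compared, chosen by their Epcam, Met and Mki67 values.

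All tumors came from untreated MADM-mutant mice on a mixed background that carried the MADM cassette alleles, named RG;GR in the labels (TG11ML and GT11ML), together with a Brca1 flox allele, a p53 knockout allele and MMTV-Cre. In this model the body of the animal is heterozygous, and rare Cre-driven recombination leaves single GFP-labeled mammary cells without Brca1 and p53, from which tumors arise. The genotype is the same in every tumor compared here, and animal ages are not given in the labels. MMTV-Cre is constitutive in mammary epithelium, and each RNA sample was a piece of bulk tumor that could also hold heterozygous host cells. No normal gland is among the samples used here. In bulk RNA, fewer cells of a type and less RNA per cell cannot be told apart.

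Mki67 encodes Ki-67, a nuclear protein that coats mitotic chromosomes and is present in cycling but not in resting cells, which is why pathologists score it in breast tumors. Its RNA is made mostly from S phase to mitosis. Genes for DNA replication are turned on by E2F factors at the start of S phase, while many genes for the spindle and for mitosis are turned on later by a complex of B-Myb, MuvB and FoxM1 that binds CHR elements, often with a CCAAT box nearby.

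Mki67 stood at 123, 119, 102 and 85.1 TPM in tumors 3, 5, 4 and 7, the Mki67-high group (107 ± 17.4, SD, n = 4). It stood at 74.1, 71.2, 63.0 and 42.4 TPM in tumors 12, 10, 6 and 1, the Mki67-low group (62.7 ± 14.3, SD, n = 4). Since the groups were selected on these values they are a description and were not tested. The step between the groups was small at its edge, where tumor 7 at 85.1 TPM was the last of the high tumors, tumor 11 at 74.6 TPM was the one set aside and tumor 12 at 74.1 TPM was the first of the low tumors. The highest Mki67 of the series, 170 TPM, was in tumor 2. It was not kept because its Epcam was listed at 0 and its Met was at 1.13 TPM.

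Epcam, an adhesion molecule of epithelial cells, was at 239 TPM in tumor 7, the lowest of the tumors kept, and at 2.03 TPM in tumor 8, which was left out. Met, the receptor for hepatocyte growth factor, was at 1468 TPM in tumor 5, the lowest kept, and at 78.3 TPM in tumor 9, which was left out although its Epcam was 914 TPM. Within the groups compared, Epcam was at 418, 538, 336 and 239 TPM in tumors 3, 5, 4 and 7, and at 320, 702, 689 and 1004 TPM in tumors 12, 10, 6 and 1. The groups overlapped for Epcam, since tumor 12 lay below 3 of the high tumors. Met also overlapped, from 1468 to 2492 TPM in the high and from 1788 to 3119 TPM in the low tumors. The luminal keratins Krt8 and Krt18 were abundant in every tumor compared, with the lowest values, 799 and 718 TPM, in tumor 7.

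**Figure D1:**
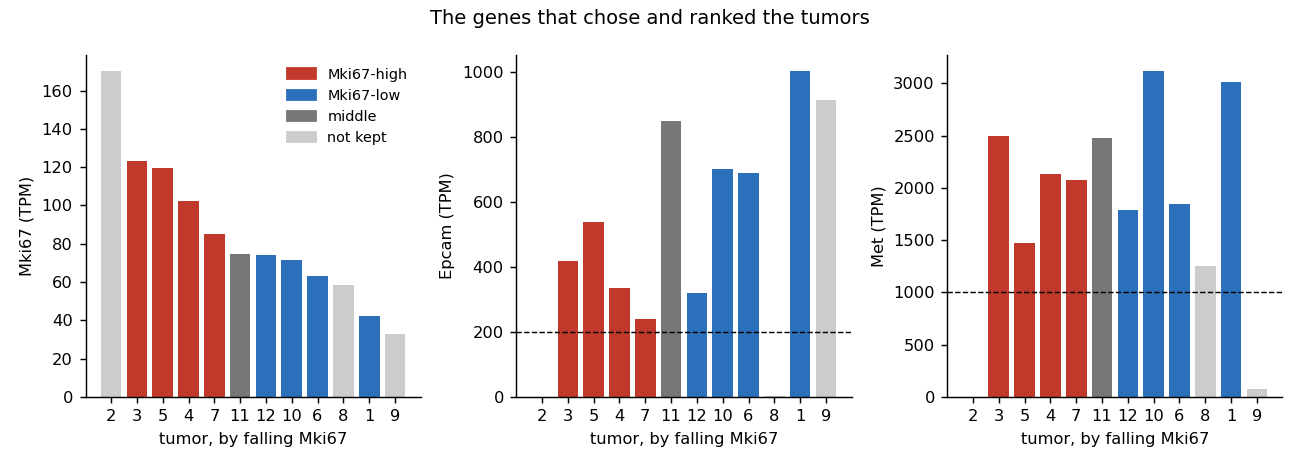
TPM of Mki67, Epcam and Met (vertical axes) in each of the 12 tumors, ordered by falling Mki67. Red bars are the 4 Mki67-high tumors (85.1 to 123 TPM of Mki67), blue bars the 4 Mki67-low tumors (42.4 to 74.1 TPM), dark grey tumor 11, light grey the 3 tumors not kept, and dashed lines the limits of 200 and 1000 TPM.

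The tumors are not 8 independent samples. Tumors 3 and 4 came from 1 mouse and tumors 10, 11 and 12 from another, so each group holds 3 mice, and no mouse gave tumors to both groups. Tumors 3 and 4 were the most alike of all pairs, with a median absolute difference over genes of 0.19 on the log2 scale, against 0.26 to 0.51 for the 32 pairs from different mice. Tumors 10 and 12 differed by 0.37, which is within that range. Tumors of a mouse were therefore treated as a block, with an estimated correlation of 0.59 within a mouse. The number of genes above 0 TPM was 22114 to 23443 in the high tumors and 21980 to 22661 in the low tumors, and the share of TPM in mitochondrially encoded genes was 3.66% to 7.40% and 4.07% to 5.59%. TPM keeps no read number, so the depth behind each value is unknown.

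Across 16389 genes with a mean of 1 TPM or more, Mki67 excluded, 1 gene differed between the groups in limma at an adjusted p under 0.05. It was Mfsd4, which was higher in the Mki67-high tumors (0.0061% of the genes tested were called higher), and 0 genes were lower (0%). At an unadjusted p under 0.05, 289 genes (1.76%) were higher and 171 (1.04%) lower, a split of 62.8% higher that became 46.5% higher (218 genes higher) when the values were scaled by median-of-ratios factors. That scaling moved the median log2 difference of all genes from 0.05 to 0.002. In 371 genes (2.26%) all 4 high tumors lay above all 4 low tumors, and in 219 genes (1.34%) all 4 lay below. The median gene was thus nearly level between the groups, and 56.2% of genes had a positive difference.

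Mfsd4, a transporter of the major facilitator superfamily also called Mfsd4a, lies on the minus strand at chr1:132022806-132068062 in GRCm38. It was at 27.4, 13.7, 24.2 and 21.8 TPM in tumors 3, 5, 4 and 7, and at 1.66, 1.88, 0.829 and 1.80 TPM in tumors 12, 10, 6 and 1. Every high tumor was thus well above every low tumor, also in the mice that gave a single tumor. The log2 difference was 3.11 with a standard error of 0.32 (limma, adjusted p = 0.036). Tumor 11, set aside with a middling Mki67, had 1.06 TPM of Mfsd4 and so lay among the low tumors, its own mouse's tumors 10 and 12 included. Among the tumors not kept, Mfsd4 did not follow the order of Mki67. It was at 53.8 TPM in tumor 2, 8.53 TPM in tumor 8 and 17.9 TPM in tumor 9, whose Mki67 of 33.0 TPM was the lowest of the series. The call was lost without any one of tumors 1, 3, 4, 6, 7 and 10 (adjusted p from 0.080 to 0.30). It was also lost when tumors of a mouse were averaged (adjusted p = 0.13) and when the mouse of tumors 3 and 4 was left out (log2 difference 2.90, adjusted p = 0.999), while the difference was positive in all 23 alternatives.

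The genes of dividing cells were gathered in 6 lists, 267 genes in all, of which 266 were tested. None was called at an adjusted p under 0.05 in limma. Of the 266 genes, 232 had a positive difference and 34 a negative one, with a median of 0.37 on the log2 scale against 0.05 for all genes. In 44 of them (16.5%) the groups did not overlap and were higher in the Mki67-high tumors, where the share over all genes was 2.26%. Only Cdt1 did the same in the other direction. At an unadjusted p under 0.05, 43 were higher and 0 lower, where the shares over all genes were 1.76% and 1.04%. Since these genes and Mki67 belong to the same program, and the tumors were ranked by Mki67, these counts describe how far that program went along with the ranking.

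The tumors did not follow the ranking evenly. The summed level of the 267 genes was 17722, 12765, 15589 and 13812 TPM in tumors 3, 5, 4 and 7, and 11867, 12286, 10970 and 10628 TPM in tumors 12, 10, 6 and 1. Tumor 5, second by Mki67 with 119 TPM, was thus only just above tumor 10 with 71.2 TPM. Relative to the mean of the 8 tumors, the median gene of these lists was at 0.35, 0.02, 0.19 and 0.14 in tumors 3, 5, 4 and 7, and at -0.10, -0.05, -0.25 and -0.29 in tumors 12, 10, 6 and 1, on the log2 scale. Tumor 11 was at -0.20, below both tumors 12 and 10 from the same mouse, although its Mki67 was a little above theirs. Set against the 4 low tumors, the 2 tumors of 1 mouse, 3 and 4, had a median difference of 0.44 over these genes with 213 of 266 positive, and tumors 5 and 7 of the other 2 mice had 0.26 with 217 positive. Over all genes the same comparisons had medians of 0.03 and 0.05, with 52.5% and 55.9% positive.

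**Figure D2:**
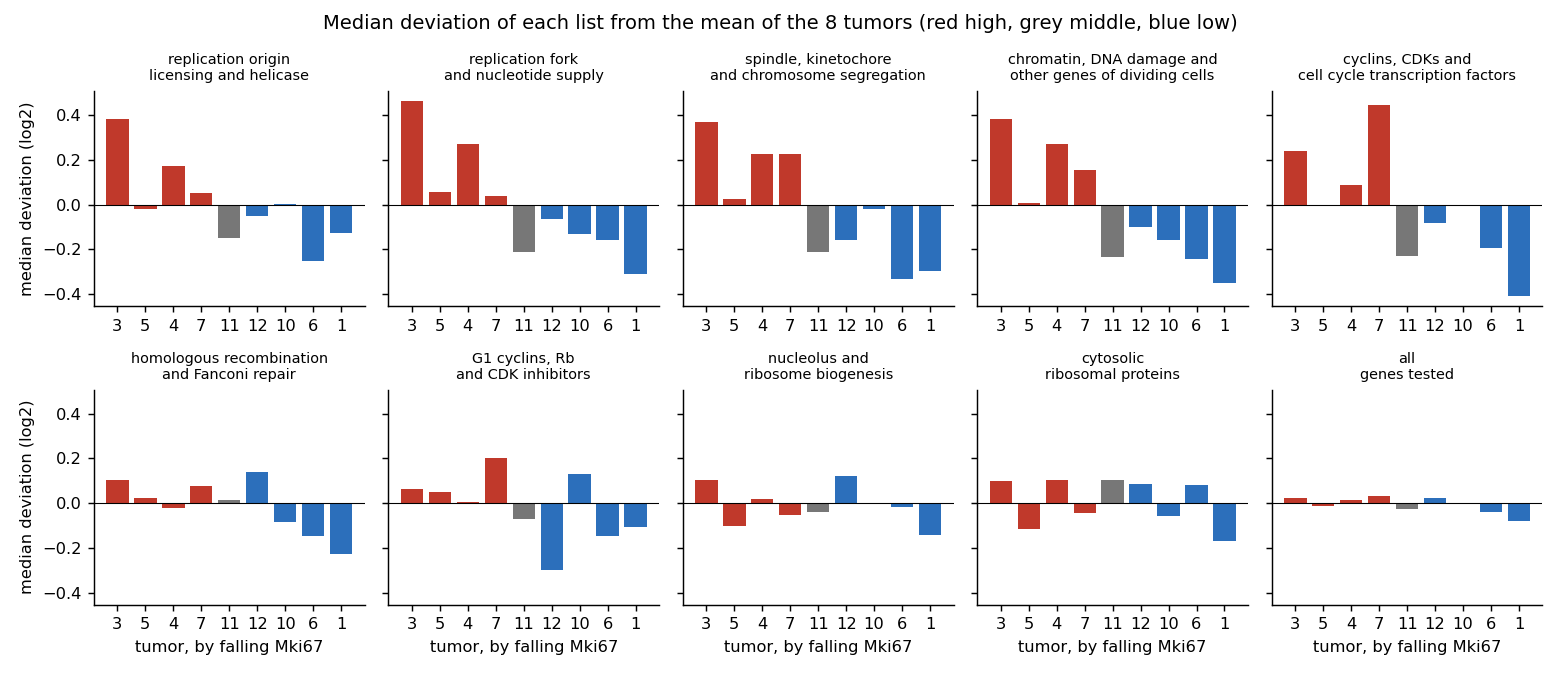
Median deviation of the genes of each list from the mean of the 8 tumors (log2, vertical axes) in each of the 9 tumors ordered by falling Mki67, for the 6 lists of dividing cells, 3 lists of growth and G1 control, and all 16389 genes. Red bars are Mki67-high, blue Mki67-low and grey tumor 11. Tumor 3 is at 0.37 and tumor 6 at -0.33 for the spindle list, while the bar of tumor 5 is near 0 in the lists of dividing cells.

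The genes of the spindle, the kinetochore and chromosome segregation were the largest list. Of 114 tested, 104 had a positive difference, the median was 0.43, and the groups did not overlap in 23 (20.2%, against 2.26% of all genes), all higher in the Mki67-high tumors. Psrc1, a microtubule-binding protein of the spindle, was at 22.7, 16.3, 17.8 and 17.1 TPM in tumors 3, 5, 4 and 7, and at 16.0, 9.02, 3.78 and 7.88 TPM in tumors 12, 10, 6 and 1. The step from tumor 5 to tumor 12 was small, and the spread was wide among the low tumors (log2 difference 1.15, SE 0.42, limma adjusted p = 0.998). Ncapg2, a subunit of condensin II, was at 60.8, 15.1, 47.0 and 19.7 TPM in the same high tumors and at 13.1, 12.7, 9.07 and 12.7 TPM in the low ones. Here the 2 tumors of 1 mouse, 3 and 4, stood far above tumors 5 and 7. Cit, the citron kinase of cytokinesis, was at 17.7, 10.2, 15.4 and 9.30 TPM in tumors 3, 5, 4 and 7, against 4.54 to 6.65 TPM in the low tumors. The genes at the other end were Cenpt and Cenpk, both kinetochore proteins, with log2 differences of -0.29 and -0.23, and both overlapped.

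For orientation, the promoters of Mki67, of the 3 genes of dividing cells with the largest differences among those whose groups did not overlap, and of Mfsd4, are shown 5′ to 3′, each from 250 bases before to 50 bases after the transcript start as RefSeq places it in GRCm38.p6. Capitals mark the CHR element (TTTGAA or TTCGAA), the CCAAT box (CCAAT) and E2F motifs (TTTGGCGC, TTTCGCGC or GCGGGAA), each searched on both strands. TTCGAA reads the same on both strands, and no marked motifs overlap in these windows.
Mki67 (chr7:135716330-135716629, minus strand): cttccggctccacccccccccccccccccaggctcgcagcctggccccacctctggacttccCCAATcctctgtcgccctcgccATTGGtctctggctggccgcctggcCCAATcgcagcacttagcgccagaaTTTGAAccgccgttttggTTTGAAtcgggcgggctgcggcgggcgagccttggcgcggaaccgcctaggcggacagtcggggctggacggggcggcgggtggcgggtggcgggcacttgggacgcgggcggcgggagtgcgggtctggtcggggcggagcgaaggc
Psrc1 (chr3:108383588-108383887, plus strand): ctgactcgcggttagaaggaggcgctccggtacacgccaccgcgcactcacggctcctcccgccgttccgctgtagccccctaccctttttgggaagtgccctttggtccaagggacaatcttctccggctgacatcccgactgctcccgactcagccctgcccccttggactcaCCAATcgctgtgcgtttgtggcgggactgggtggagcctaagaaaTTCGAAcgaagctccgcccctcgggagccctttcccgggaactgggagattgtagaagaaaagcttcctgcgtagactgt
Ncapg2 (chr12:116405186-116405485, plus strand): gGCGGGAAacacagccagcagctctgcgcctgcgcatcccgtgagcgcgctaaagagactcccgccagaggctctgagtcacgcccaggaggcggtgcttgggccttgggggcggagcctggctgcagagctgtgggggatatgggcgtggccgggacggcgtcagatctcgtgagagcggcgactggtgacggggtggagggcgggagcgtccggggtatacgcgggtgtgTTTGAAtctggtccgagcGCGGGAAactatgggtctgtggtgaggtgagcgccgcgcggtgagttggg
Tcf19 (chr17:35516775-35517074, minus strand): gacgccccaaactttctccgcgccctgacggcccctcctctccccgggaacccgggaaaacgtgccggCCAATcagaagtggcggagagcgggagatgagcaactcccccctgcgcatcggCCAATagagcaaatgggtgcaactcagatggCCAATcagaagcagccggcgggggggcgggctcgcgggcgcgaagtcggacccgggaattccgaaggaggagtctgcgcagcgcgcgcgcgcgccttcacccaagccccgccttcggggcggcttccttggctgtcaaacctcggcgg
Mfsd4 (chr1:132068013-132068312, minus strand): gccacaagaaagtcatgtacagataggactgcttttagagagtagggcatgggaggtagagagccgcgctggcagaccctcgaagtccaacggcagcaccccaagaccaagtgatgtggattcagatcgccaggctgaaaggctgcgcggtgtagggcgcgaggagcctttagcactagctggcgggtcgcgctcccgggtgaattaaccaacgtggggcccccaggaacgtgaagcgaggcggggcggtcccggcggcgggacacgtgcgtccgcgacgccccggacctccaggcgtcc

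The Mki67 promoter held 2 CHR elements, at -116 and -98 from the start, and 3 CCAAT boxes, at -188, -166 and -141. The Psrc1 window shown, the second of 2 in the table, held a CHR element at -30 and a CCAAT box at -75. Ncapg2 had a CHR element at -18 and 2 E2F motifs, at -249 and at the start itself, and Tcf19 had 3 CCAAT boxes and neither of the others. None of these letters was in the Mfsd4 window. Promoters were matched for 10912 of the genes tested, some with several windows. Among 108 windows of 98 spindle genes, 66.7% held a CHR element, 68.5% a CCAAT box and 13.9% an E2F motif, against 14.3%, 37.6% and 9.15% of the 13906 windows of all genes tested and 19.2%, 37.4% and 5.33% of all 32851 windows. Among 20 windows of the licensing genes 7 held a CHR element, 14 a CCAAT box and 13 (65.0%) an E2F motif. For the 216 matched genes of all lists of dividing cells the shares were 43.7%, 64.1% and 31.0% of 245 windows. For the 35 of them that were higher without overlap the shares were 48.7%, 66.7% and 30.8% of 39 windows, and for the 222 matched other genes that were higher without overlap they were 9.93%, 35.3% and 11.4% of 272 windows. A match of letters is a description of the sequence and does not show that a factor binds there.

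The other lists of dividing cells gave smaller counts. In the list of chromatin, DNA damage and other genes of dividing cells, 33 of 40 tested had a positive difference, the median was 0.42 and 9 (22.5%, against 2.26% of all genes) were higher without overlap. It held Tcf19, a factor of the G1 to S transition, at 122, 59.3, 101 and 48.3 TPM in tumors 3, 5, 4 and 7 and at 29.4, 41.9, 32.4 and 31.3 TPM in tumors 12, 10, 6 and 1. The low tumors were close together, while tumors 3 and 4 were about double tumors 5 and 7 (log2 difference 1.08, SE 0.33). Parpbp, a PARP1-binding protein that restrains homologous recombination, was at 8.44 to 19.9 TPM in the high and 4.59 to 6.92 TPM in the low tumors.

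Of the genes of the replication fork and of nucleotide supply, 31 of 32 had a positive difference with a median of 0.37, and 3 (9.38%, against 2.26% of all genes) were higher without overlap. The median was 0.53 for tumors 3 and 4 and 0.20 for tumors 5 and 7, each against the 4 low tumors. Rrm2, the regulated subunit of ribonucleotide reductase, was at 179, 46.2, 145 and 79.2 TPM in tumors 3, 5, 4 and 7 and at 56.4, 44.5, 36.4 and 42.4 TPM in tumors 12, 10, 6 and 1. Tumor 5 lay below tumor 12, so the groups overlapped. The one negative gene was Dnmt1, the maintenance DNA methyltransferase, at 68.5 to 89.1 TPM in the high and 65.2 to 116 TPM in the low tumors.

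Among the genes that license and fire replication origins, 20 of 25 had a positive difference, the median was 0.28, 4 (16.0%) were higher without overlap and 1 lower, against 2.26% and 1.34% of all genes. The median was 0.48 for tumors 3 and 4 and 0.07 for tumors 5 and 7, each against the 4 low tumors, and the latter is close to the 0.05 of all genes. Cdc7, the kinase that fires origins, was at 24.3 to 32.5 TPM in the high and 11.6 to 21.8 TPM in the low tumors (log2 difference 0.82, SE 0.27). Tipin, of the fork protection complex, was at 156, 62.0, 136 and 75.9 TPM against 38.83 to 60.5 TPM. The licensing factors Cdt1 and Orc1 went the other way. Cdt1 was at 41.5, 39.2, 36.3 and 27.0 TPM in tumors 3, 5, 4 and 7 and at 41.7, 61.2, 44.7 and 54.3 TPM in tumors 12, 10, 6 and 1, so tumors 3 and 12 nearly met (log2 difference -0.50, SE 0.26). Orc1 overlapped, with a log2 difference of -0.54.

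Among cyclins, CDKs and cell cycle transcription factors, 22 of 25 had a positive difference, with a median of 0.35, and 4 (16.0%, against 2.26% of all genes) were higher without overlap. Ccne1, cyclin E1, which drives entry into S phase, was at 80.4, 19.8, 68.0 and 40.6 TPM in tumors 3, 5, 4 and 7 and at 17.5 to 21.4 TPM in the low tumors. Tumor 5 lay within the low group, and the other 3 high tumors lay above it. Mybl1, a relative of B-Myb, was at 12.3 to 19.6 TPM against 4.36 to 11.6 TPM. Cdk2 and E2f3 had the lowest differences of this list, -0.09 and -0.05, and both changed sign in some of the alternatives. For homologous recombination and Fanconi repair, the function that Brca1 belongs to, 25 of 33 genes had a positive difference with a median of 0.25, and 2 (6.06%) were higher without overlap, where 2.26% of all genes were. Ube2t, the ubiquitin-conjugating enzyme of the Fanconi pathway, was at 20.5 to 44.4 TPM in the high and 14.2 to 19.98 TPM in the low tumors. Bard1, the partner of Brca1, overlapped (log2 difference 0.64), and Rad51d and Fancc were at -0.56 and -0.46.

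Among the cycle genes that did not overlap, Clspn, Rad54b, Mis18a, Slbp and Atad2 had the smallest differences. Their log2 differences were from 0.35 to 0.40. The lowest high and the highest low tumor nearly met in Clspn (15.5 and 14.9 TPM) and Rad54b (16.46 and 16.15 TPM). They were also close in Mis18a (34.4 and 33.8 TPM), Slbp (91.3 and 89.9 TPM) and Atad2 (51.9 and 51.2 TPM).

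Cells decide in G1 whether to divide. Of 17 genes for G1 cyclins, Rb proteins and CDK inhibitors, 10 had a positive difference with a median of 0.12, which took both signs over the alternatives (-0.09 to 0.15), and 1 (5.88%, against 2.26% of all genes) was higher without overlap. This was Cdkn2d, the p19 inhibitor of CDK4 and CDK6, whose RNA is made periodically in cycling cells. It was at 32.9, 36.0, 33.0 and 42.6 TPM in tumors 3, 5, 4 and 7 and at 17.8, 24.7, 16.0 and 20.9 TPM in tumors 12, 10, 6 and 1. The high tumors were close together and tumor 5 was among them (log2 difference 0.89, SE 0.24, limma adjusted p = 0.998). Cdkn2a, which encodes the p16 and Arf proteins, was at 77.9 to 253 TPM in the high and 137 to 289 TPM in the low tumors and overlapped.

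**Figure D3:**
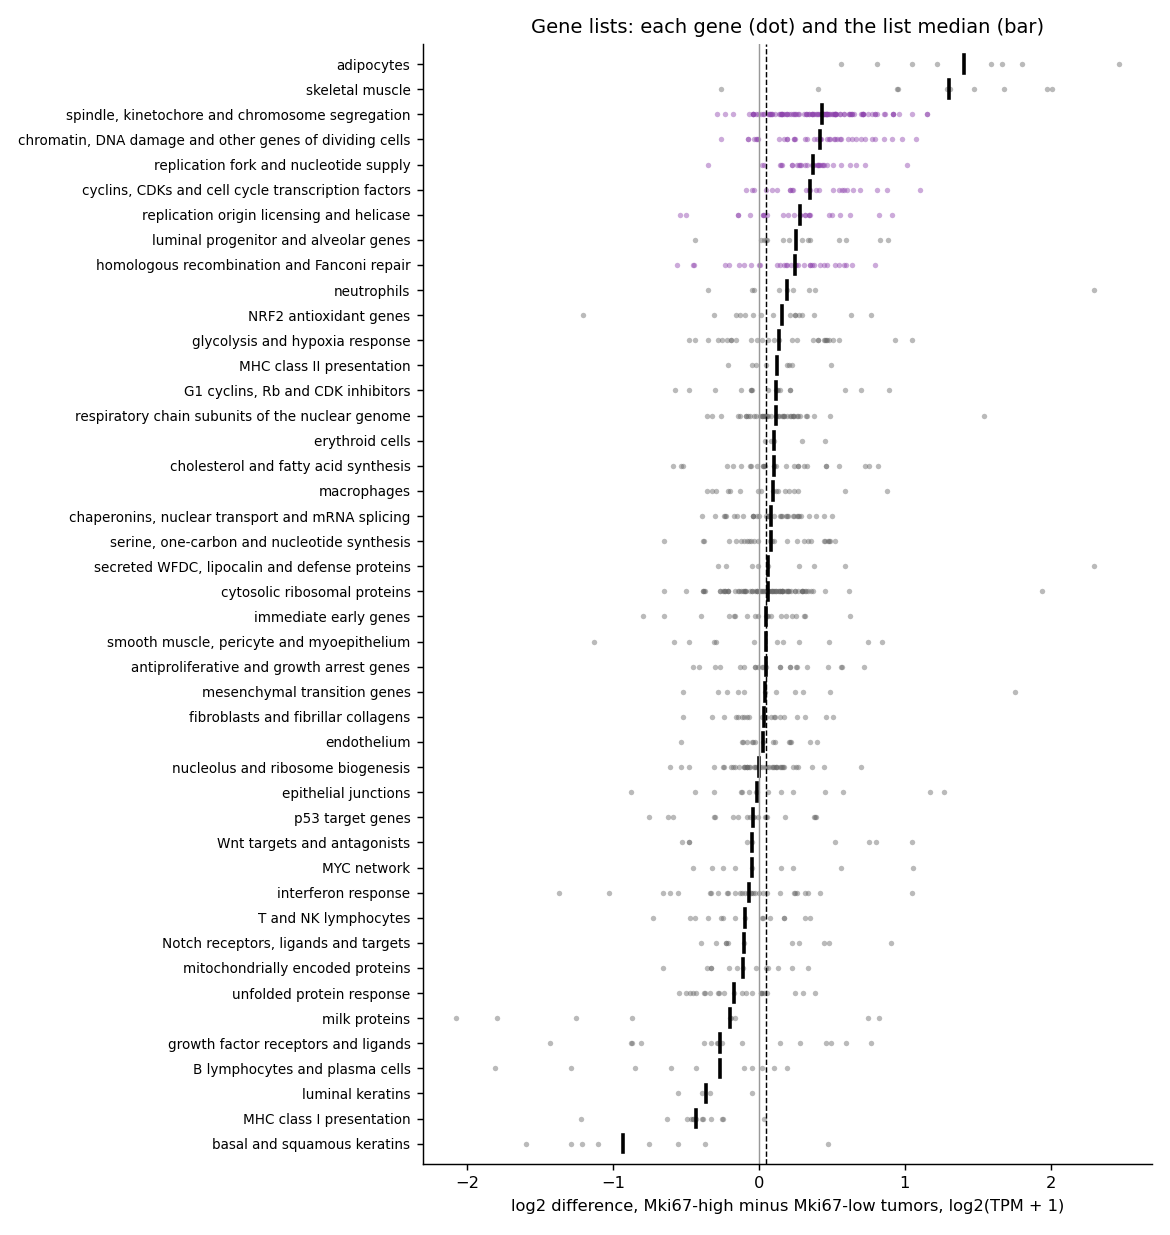
Log2 difference on the log2(TPM + 1) scale between Mki67-high and Mki67-low tumors (horizontal axis) for the genes of each of 44 lists, with 1 dot per gene, the list median as a black bar and the median of all genes, 0.05, as a dashed line. Lists of dividing cells are in purple, with medians from 0.25 to 0.43, and the medians reach 1.40 for adipocyte genes and -0.93 for basal and squamous keratins.

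Genes of cell growth had medians close to that of all genes. Of 44 genes of the nucleolus and ribosome biogenesis, 22 had a positive and 22 a negative difference, with a median of -0.002. The groups did not overlap in 1 gene higher and 1 lower (2.27% each), against 2.26% and 1.34% of all genes. Polr1a, the largest subunit of RNA polymerase I, was lower in every high tumor, at 12.2 to 21.1 TPM against 22.6 to 33.5 TPM. Utp20, of the small subunit processome, was higher in every high tumor, at 28.4 to 45.2 TPM against 14.3 to 27.7 TPM. The 80 cytosolic ribosomal protein genes tested had a median of 0.06 and the chaperonins, nuclear transport and splicing genes one of 0.08. In the MYC network 4 of 9 genes were positive, with a median of -0.05, and Myc itself was at 66.6, 79.1, 62.6 and 88.2 TPM in the high and 168, 83.2, 94.6 and 71.9 TPM in the low tumors. The 13 mitochondrially encoded protein genes had a median of -0.11, which was -0.41 without tumor 5 and 0.10 without tumor 7, and the nuclear genes of the respiratory chain one of 0.11.

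For the lists of metabolism and stress the medians were 0.14 for glycolysis and hypoxia, 0.08 for serine, one-carbon and nucleotide synthesis, 0.10 for cholesterol and fatty acid synthesis, 0.16 for NRF2 antioxidant genes, 0.05 for immediate early genes, -0.04 for p53 targets and -0.17 for the unfolded protein response, against 0.05 for all genes. In the unfolded protein response 15 of 23 genes had a negative difference, and the median was between -0.25 and -0.05 in all alternatives. The medians took both signs for glycolysis and hypoxia (-0.16 to 0.32), NRF2 genes (-0.03 to 0.25), immediate early genes (-0.16 to 0.19), p53 targets (-0.13 to 0.04) and serine, one-carbon and nucleotide synthesis (-0.003 to 0.21). Mvk and Btg1 were among the 2.26% of genes that were higher without overlap, and neither was called (limma adjusted p = 0.998 for each). Mvk, mevalonate kinase, was at 18.6 to 31.1 TPM in the high and 10.2 to 16.7 TPM in the low tumors. Ndufa4, a small subunit of cytochrome c oxidase, reached 3502 TPM in tumor 5 and was at 267 to 852 TPM in the other 7. Among genes linked to growth arrest, with a median of 0.05, Btg1, an antiproliferative gene, was at 119 to 202 TPM in the high and 69.5 to 110 TPM in the low tumors, which is the direction of Mki67.

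Outside the genes of dividing cells, the leading genes that were higher in every Mki67-high tumor were Mfsd4, Fbp2, Ugt8a, Auts2, Cdkn2d, Shank2, Sumo2, Lrrc26, Plac8, Ifi44l, Slc5a8, Efemp1, Tmem181c-ps, Fam234b and Paxbp1. Except for Mfsd4 none passed the adjusted test (adjusted p = 0.998 for each in limma). Fbp2, the muscle form of fructose-bisphosphatase, was at 26.5, 27.4, 20.6 and 47.2 TPM in tumors 3, 5, 4 and 7 and at 5.51, 0, 0.937 and 0 TPM in tumors 12, 10, 6 and 1. It was listed at 0 in tumor 11 as well. The summed level of skeletal muscle markers was 498, 28.9, 356 and 53.04 TPM in tumors 3, 5, 4 and 7 and 26.5 to 94.8 TPM in the low tumors, and its part in the Fbp2 values was not tested.

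Ugt8a, the enzyme that makes galactosylceramide, was at 7.49 to 11.7 TPM in the high and 0.302 to 3.63 TPM in the low tumors. Auts2, a chromatin regulator known from the brain, was at 16.3 to 26.6 TPM against 5.84 to 11.1 TPM, and Shank2, a scaffold protein, at 13.2 to 25.9 TPM against 6.03 to 8.88 TPM. Slc5a8, a sodium-coupled transporter of monocarboxylates, was at 33.2, 55.7, 25.7 and 16.9 TPM in tumors 3, 5, 4 and 7 and at 15.4, 10.7, 9.14 and 1.99 TPM in tumors 12, 10, 6 and 1. Its order followed Mki67 among the low tumors, and it was the gene called when Mki67 was taken as a continuous value over the 9 tumors (limma adjusted p = 0.017). Ifi44l, induced by interferon, was at 17.4 to 27.4 TPM in the high tumors and at 0 to 10.6 TPM in the low ones, with 0 and 0.169 TPM in tumors 12 and 10 of 1 mouse and 0 in tumor 11 of that mouse.

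Sumo2, the ubiquitin-like modifier, had a small and even difference. It was at 283, 260, 266 and 268 TPM in tumors 3, 5, 4 and 7 and at 188, 186, 160 and 184 TPM in tumors 12, 10, 6 and 1 (log2 difference 0.59, SE 0.16). Both groups were tight, and tumor 11 at 197 TPM lay between them. Ltf, lactoferrin, had a large difference that overlapped, with 220, 402, 182 and 411 TPM in tumors 3, 5, 4 and 7 and 72.0, 66.7, 15.8 and 207 TPM in tumors 12, 10, 6 and 1 (log2 difference 2.30, SE 0.71).

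**Figure D4:**
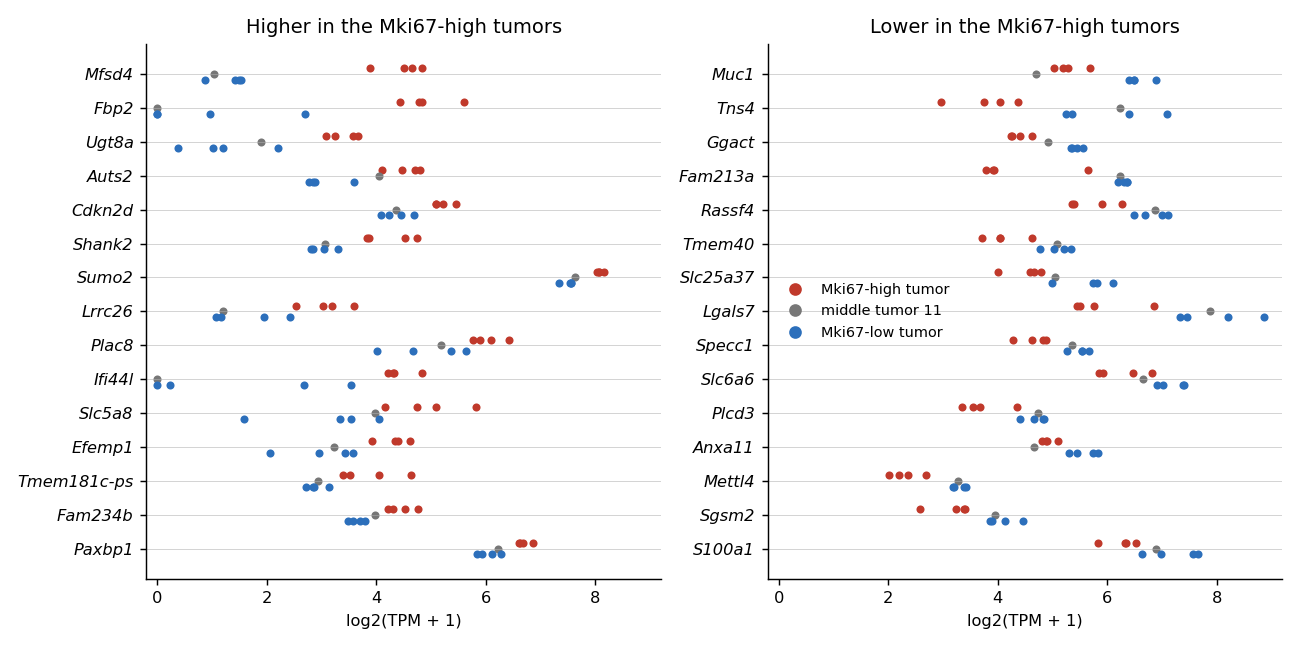
Level on the log2(TPM + 1) scale (horizontal axis) of the 15 leading genes in each direction outside the lists of dividing cells, with 1 dot per tumor in red for Mki67-high, blue for Mki67-low and grey for tumor 11. The genes were taken for having no overlap between red and blue, and Mfsd4, from 13.7 to 27.4 TPM against 0.829 to 1.88 TPM, is the one called.

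In the other direction, the leading genes were Muc1, Tns4, Ggact, Fam213a, Rassf4, Tmem40, Slc25a37, Lgals7, Specc1, Slc6a6, Plcd3, Anxa11, Mettl4, Sgsm2 and S100a1, none of which passed the adjusted test. Muc1, a mucin of the apical surface of epithelia, was at 35.8, 50.7, 31.6 and 37.9 TPM in tumors 3, 5, 4 and 7 and at 88.6, 83.5, 88.7 and 118 TPM in tumors 12, 10, 6 and 1 (log2 difference -1.25, SE 0.22, limma adjusted p = 0.998). The gap between the groups was clear, but tumor 11, with a middling Mki67, had 24.9 TPM, below every tumor of the high group. Tns4, an adhesion protein, was at 19.8, 12.4, 15.4 and 6.78 TPM in the high tumors and at 36.8, 40.0, 135 and 83.2 TPM in the low ones (log2 difference -2.50, SE 0.46), and here tumor 11 at 74.4 TPM was with the low tumors. Lgals7, galectin-7 of stratified epithelia, was at 42.8 to 115 TPM against 159 to 464 TPM.

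Ggact, an enzyme that opens crosslinks left by transglutaminases, was at 17.9 to 23.8 TPM in the high and 39.3 to 45.9 TPM in the low tumors. Fam213a, a peroxiredoxin-like protein, was at 14.3, 49.0, 14.2 and 12.8 TPM in tumors 3, 5, 4 and 7 and at 71.9 to 81.4 TPM in the low tumors. Tumor 5 stood apart from the other high tumors, and without it Fam213a was called lower (limma adjusted p = 0.016, log2 difference -2.44). Slc25a37, the mitochondrial iron importer mitoferrin, was at 15.1 to 26.7 TPM against 30.9 to 68.2 TPM, and Slc6a6, the taurine transporter, at 56.4 to 112 TPM against 119 to 168 TPM.

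Genes of epithelial identity gave no called gene. The basal and squamous keratins had the lowest median of all lists, -0.93, with 7 of 8 negative, and no keratin was without overlap. Without tumor 5 this median was -0.23. Krt17 was at 123, 16.5, 92.8 and 16.4 TPM in tumors 3, 5, 4 and 7 and at 97.1, 31.9, 116 and 214 TPM in tumors 12, 10, 6 and 1. Krt6a, whose reads can be shared with its close copy Krt6b, was at 1.06 TPM in tumor 5 and at 49.4 to 109 TPM in the other 7. So the negative median was set largely by tumor 5, and for Krt17 also by tumor 7, while tumors 3 and 4 were like the low tumors. The 4 luminal keratins were all negative with a median of -0.36, which was -0.02 without tumor 1 and 0.04 with 3 against 3 tumors, and all overlapped. Among 14 luminal progenitor and alveolar genes, 13 had a positive difference with a median of 0.25, which ranged from 0.12 without tumor 5 to 0.44 without the mouse of tumors 10 and 12. Ehf, an epithelial ETS factor, was at 154 to 342 TPM in the high and 64.4 to 187 TPM in the low tumors, and Gata3, a luminal factor, at 8.56 to 20.6 TPM and 16.6 to 30.4 TPM. The medians were -0.01 for epithelial junctions, 0.04 for mesenchymal transition genes, -0.20 for milk proteins, -0.27 for growth factor receptors and ligands, -0.10 for Notch and -0.05 for Wnt genes, and 0.06 for secreted WFDC, lipocalin and defense proteins. Except for growth factor receptors and ligands (-0.31 to -0.07), each of these took both signs over the alternatives, with ranges of -0.95 to 0.05 for milk proteins, -0.15 to 0.28 for Notch and -0.26 to 0.52 for Wnt genes.

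In antigen presentation by MHC class I, 12 of 13 genes had a negative difference, with a median of -0.43, 1 gene was lower without overlap, where the share over all genes was 1.34%, and none was called. The median was -0.12 without the mouse of tumors 10 and 12, and -0.07 and -0.06 with Mki67 as a continuous value over 9 tumors and 6 mouse means. Summed over the list the level was 5944, 11576, 5659 and 8327 TPM in tumors 3, 5, 4 and 7 and 11999, 15474, 8996 and 10505 TPM in tumors 12, 10, 6 and 1. Tumor 5 lay within the low group. H2-Q7 was at 55.0 and 57.3 TPM in tumors 3 and 4 of 1 mouse and at 229 to 528 TPM in the other 6 tumors, and reads of such closely related class I genes may be split between them and, on a mixed background, may depend on the haplotype. Psmb10, a subunit of the immunoproteasome, was at 44.5 to 71.0 TPM in the high and 66.4 to 140 TPM in the low tumors. The interferon list had a median of -0.07 (-0.35 to 0.24 over the alternatives), and went both ways. In it 1 gene, Oasl1, was higher without overlap (3.33%, against 2.26% of all genes). Gbp2, a guanylate-binding protein, was at 78.1, 57.0, 71.0 and 128 TPM in tumors 3, 5, 4 and 7 and at 286, 340, 234 and 116 TPM in tumors 12, 10, 6 and 1, while Oasl1 was at 85.3 to 123 TPM against 25.6 to 72.4 TPM. MHC class II genes had a median of 0.12 (-0.17 to 0.43).

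Markers of host cells were read beside these results. The summed level of T and NK lymphocyte markers was 70.9 to 197 TPM in the high and 48.6 to 146 TPM in the low tumors, of macrophage markers 3344 to 5850 TPM and 3899 to 7719 TPM, of neutrophil markers 501 to 983 TPM and 328 to 730 TPM, of endothelial markers 168 to 288 TPM and 187 to 303 TPM, and of fibroblast markers 860 to 6904 TPM and 1718 to 3225 TPM. All these ranges overlapped. Thy1, which is also in the fibroblast list, gave 134 of the 197 TPM of T and NK markers in tumor 4. It was at 36.7 to 134 TPM in the high and 39.1 to 67.8 TPM in the low tumors. Ltf, also a secreted defense protein, gave 402 of the 534 TPM of neutrophil markers in tumor 5. It was at 182 to 411 TPM against 15.8 to 207 TPM. Of 9 neutrophil genes tested, 6 were positive and 3 negative, with S100a8 at -0.35 and Ngp at -0.05 (log2). Markers of B lymphocytes and plasma cells ranged from 102 to 445 TPM in the high tumors and from 15.1 to 2282 TPM in the low ones. Erythroid markers were at 136 to 868 TPM and 144 to 522 TPM, and those of smooth muscle, pericytes and myoepithelium at 206 to 534 TPM and 205 to 340 TPM. Of the defining markers, Pax5, Marco and Elane were below 1 TPM in all 8 tumors.

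Adipocyte and skeletal muscle genes had the highest medians of all lists, 1.40 with 8 of 8 positive and 1.30 with 9 of 10 positive, and no gene of them was called. Without the mouse of tumors 3 and 4 the adipocyte median was 0.83 and the skeletal muscle median turned to -0.43. The summed adipocyte level was 221, 281, 563 and 29.1 TPM in tumors 3, 5, 4 and 7 and 101, 170, 22.8 and 26.9 TPM in tumors 12, 10, 6 and 1. Adipoq, which marks fat cells, was at 0.122 TPM in tumor 7 and at 11.9 to 32.7 TPM in the other high tumors, and at 3.40, 10.6, 0.218 and 0 TPM in tumors 12, 10, 6 and 1. Tumor 10 of the low group was thus close to the lowest of those 3 high tumors. The summed skeletal muscle level was 498 and 356 TPM in tumors 3 and 4, 28.9 and 53.04 TPM in tumors 5 and 7, and 26.5 to 94.8 TPM in the low tumors. Mylpf, with the largest difference of this list, was at 107, 8.13, 66.8 and 6.90 TPM in tumors 3, 5, 4 and 7. It was at 2.62 to 5.65 TPM in the low tumors. Only 1 of the 10 muscle genes (10.0%, against 2.26% of all genes), Mylpf, was higher without overlap. Tnnc2, fast troponin C, was at 36.5 and 31.3 TPM in tumors 3 and 4 and listed at 0 in the other 6. Muscle RNA was thus high in 1 mouse of the high group, fat RNA was present in mice of both groups, and the part of such tissue in the other differences was not tested.

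Mki67 lies on chromosome 7, at chr7:135689784-135716361 in GRCm38, and genes were therefore also read by position, a view chosen after the values were seen. On chromosome 7 the median difference of 1268 genes was 0.25, with 82.0% positive, but 31 genes (2.45%) were higher without overlap, close to the 2.26% of all genes. Of the 20 tested genes nearest to Mki67, 18 had a positive difference with a median of 0.27, and in none were the groups without overlap. By tumor, chromosome 7 genes deviated by a median of 0.18, 0.25, 0.12 and -0.12 in tumors 3, 5, 4 and 7 and of 0.13, 0.03, -0.23 and -0.40 in tumors 12, 10, 6 and 1. The 249 genes of dividing cells on other chromosomes had a median of 0.35, against 0.37 for all 266.

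The genes without overlap were unevenly spread over the chromosomes. On chromosome 5, 81 of 1070 genes (7.57%) were higher and 1 was lower, and on chromosome 16, 32 of 503 (6.36%) were higher and none was lower. On chromosome 14, 32 of 535 genes (5.98%) were lower and 3 higher, and on chromosome 6, 34 of 904 (3.76%) were lower and 5 higher. Within chromosome 5 the densest stretches were chr5:100033577-110010411, with 17 of 86 genes higher, and chr5:110046139-119684724, with 20 of 114. Of the 6 cycle genes with the largest differences among those without overlap, Ccdc18, a centrosome protein (log2 difference 0.96), lies in the first and Cit in the second. Chromosome 5 genes deviated by a median of 0.24, -0.08, 0.21 and 0.11 in tumors 3, 5, 4 and 7 and of -0.09, -0.09, -0.09 and -0.23 in tumors 12, 10, 6 and 1, so tumor 5 was with the low tumors. Chromosome 12, with a median of 0.27, was at 0.56 and 0.47 in tumors 3 and 4 and at -0.29 and -0.07 in tumors 5 and 7. DNA copy number was not analysed here.

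**Figure D5:**
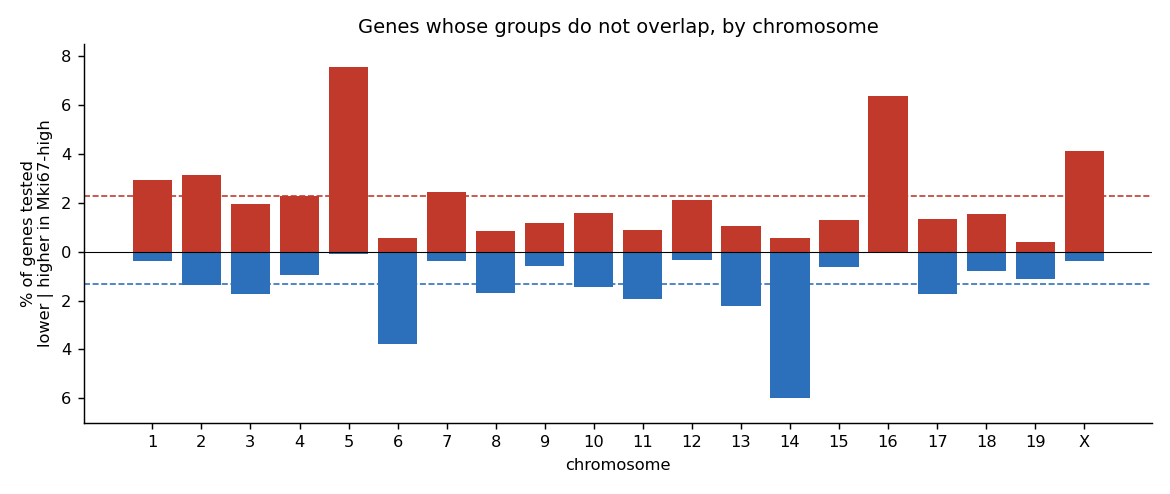
Share of the genes tested on each chromosome (vertical axis, percent) whose groups did not overlap, upward in red for higher and downward in blue for lower in the Mki67-high tumors. Dashed lines are the shares over all genes, 2.26% and 1.34%, and chromosomes 5 and 16 reach 7.57% and 6.36% upward and chromosome 14 reaches 5.98% downward.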

How the data were processed

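RNA of 12 mammary tumors was prepared from about the same mass of tissue with a stranded mRNA kit and sequenced as paired-end reads. The authors trimmed adapters with fastq-mcf, aligned with HISAT to GRCm38 and computed TPM with StringTie 2.1.6. The deposited values are TPM, 1 column per tumor with 47593 genes, without pooling, and each column was matched to a tumor by its label. No read numbers remain, which leaves the counting error open and makes count tests unsuitable.

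All tests ran on log2(TPM + 1), a scale that understates differences of low genes. Genes at 1 TPM or more on average over the 8 tumors were tested with limma 3.58.1 (R 4.3.3, statmod 1.5.0), with a trend and the mouse as a random block, and adjusted by Benjamini-Hochberg over all 16389 genes, Mki67 left out. With 3 mice in each group, p-values measure the spread between these tumors. The fit was also run on data simulated from its own model, with groups that were not ranked on a gene. That run cannot tell how ranking the tumors by Mki67 affects the p-values. The members and the 44 gene lists were chosen with earlier results of these data known. Genes were named by rule: in each list the 2 largest and 2 lowest differences and for cell types the most abundant gene, the 6 largest and 6 lowest cycle genes whose groups did not overlap, and outside the lists of dividing cells the 15 largest moderated statistics in each direction among genes without overlap, at 5 TPM or more and with a symbol that is no Gm or Rik clone. Gm266 and Adcy8, and the chromosomes, were named after their values were seen. Positions came from GENCODE vM21 by Ensembl ID (16312 of 16389 genes), and promoters from RefSeq. Figures were drawn with matplotlib 3.10.9 in Python 3.11.15 (pandas 2.3.3, numpy 2.4.6).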

Additional observations from a re-analysis of the deposited data

Results flagged for a closer look

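For each of 44 lists the median log2(TPM + 1) of its genes was looked at within each group of 4 tumors, 88 sets in all, for a tumor far from its 3 companions. A set was taken up when the gap to the nearest tumor made up nearly the whole range (the limit of Dixon's test at 4 samples), which chance alone gives in about 1 of 20 sets. This was so in 5 of 88. Among the Mki67-high tumors, tumor 5 had a median of 1.41 for the basal and squamous keratins, where the nearest tumor had 4.24. Tumor 7 had 8.69 for the secreted WFDC, lipocalin and defense proteins against 6.77 in the nearest, and 3.59 for growth factor receptors and ligands against 4.04. Among the Mki67-low tumors, tumor 1 had 5.65 for cholesterol and fatty acid synthesis against 5.41, and 3.20 for mesenchymal transition genes against 4.48. The count is close to what chance gives, and no list of dividing cells was among them.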

How the results depend on the processing

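There were 23 alternatives, of which 2 replaced or added tumor 11 and were chosen after seeing the data, as was leaving chromosome 7 out of the lists. The number of genes called higher, 1 with the settings used, was 0 with tumors of a mouse averaged, with Mki67 as a continuous value over 6 mouse means, with the 3 highest against the 3 lowest tumors, at a mean TPM of 10 or more and with no filter. It was 2 (Fbp2 and Mfsd4) with tumor 11 in place of tumor 12. With single tumors or either mouse with several tumors left out it ranged from 0 to 3, and the number called lower from 0 to 1. It was 0 without tumor 1, 3, 4, 6, 7 or 10, 0 without the mouse of tumors 3 and 4 or that of tumors 10 and 12, 2 (Gm266 and Mfsd4, with Fam213a lower) without tumor 5, and 3 (Fbp2, Adcy8 and Mfsd4) without tumor 12. Where only 1 mouse had several tumors, the correlation of 0.59 from all 8 tumors was used.

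Mfsd4 passed in 9 of the 23, with an adjusted p in limma from 0.011 to 0.999 and a log2 difference from 1.93 to 3.74, positive in all 23. Without a mouse block Mfsd4 remained the only call, and 635 genes were higher and 418 lower at an unadjusted p under 0.05. With Mki67 continuous over 9 tumors the only call was Slc5a8. The median over the genes of dividing cells ranged from 0.27 to 0.43. Of the 44 list medians, 28 took both signs over the alternatives and 16 kept theirs, among them all 6 lists of dividing cells. The ranges were -0.43 to 2.22 for skeletal muscle, 0.83 to 2.29 for adipocytes, -1.46 to -0.23 for basal and squamous keratins, -0.68 to 0.04 for luminal keratins, -0.52 to -0.06 for MHC class I and -0.41 to 0.10 for mitochondrially encoded proteins. Cdk2 and E2f3 changed sign. Cdk2, -0.09 with the settings used, was at 0.0028 with Mki67 continuous over 9 tumors, 0.011 over 6 mouse means, 0.036 without tumor 5, and 0.079 and 0.086 without the mouse of tumors 3 and 4 or of 10 and 12, and between -0.38 and 0.086 over all tumors and mice left out. E2f3, -0.05 with the settings used, was at 0.015, 0.062, 0.024 and 0.058 without tumors 4, 5, 6 and 12, 0.13 without the mouse of tumors 3 and 4, and 0.032 with tumor 11 in place of tumor 12, and between -0.31 and 0.13 over all tumors and mice left out. The cause was not tested. The depth is unknown, which limits what low genes can show.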
